A study of Mus musculus with 4 samples.

Results

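The genes described here are 10 members of the Sox family of transcription factors: Sox2, Sox15, Sox21, Sox4, Sox5, Sox6, Sox7, Sox9, Sox13 and Sox18. They were taken as every probe set that the platform annotation assigns to 1 of these symbols and to no other gene, which gave 30 of the 45037 probe sets tested. RNA had been measured on 4 whole-genome mouse Affymetrix arrays, 1 per sample, from squamous cell carcinomas that chemicals had raised in mouse skin. The cells were living tumour epithelial cells, sorted as Epcam-positive and as negative for CD45, CD31 and CD140a, and then split by a green fluorescent reporter for Sox2. Arrays came from Sox2-GFP+ cells (n = 2) and from Sox2-GFP- cells (n = 2), and per the series text the tumours were 2, taken from different mice. The labels do not say which array came from which tumour. Strain, age, the inducing chemicals and the build of the reporter allele do not appear in the labels used here. In the following, positive and negative stand for these sorted populations, and values are deposited log2 values unless a fold is named.

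Sox proteins share an HMG box, a DNA-binding domain that enters the minor groove and bends the helix, and they usually act beside a partner factor on a neighbouring site. The family is divided into lettered groups by the similarity of that box. Members of group B1 such as Sox2 activate genes and maintain progenitors, whereas Sox21 of group B2 mostly represses. Groups D, E and F are best known from cartilage, from neural crest and hair follicle stem cells, and from blood and lymphatic vessels. In skin, Sox2 marks dermal papillae and Merkel cells, and Sox9 marks the outer root sheath and bulge of the hair follicle.

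The stretch upstream of Sox2 is shown because the sort reads activity at the Sox2 locus. Those of Sox15 and Sox21 are shown because 1 probe set of each had the largest differences of the 30 with positive cells higher. With positive cells lower, Sox18 (-1.48) and a dim Sox5 probe set (-1.04) differed by more than Sox21 (1.01). Each stretch is the 250 bases before the RefSeq transcription start on mouse build GRCm38.p6, read 5′ to 3′ on the gene's own strand. Sox2 lies on the plus strand at chr3:34649745-34649994, Sox21 on the minus strand at chr14:118237031-118237280, and Sox15 on the plus strand at chr11:69654787-69655036. Capitals mark a match on either strand to the Sox core letters ACAAAG or ACAATG, which do not overlap each other.
Sox2: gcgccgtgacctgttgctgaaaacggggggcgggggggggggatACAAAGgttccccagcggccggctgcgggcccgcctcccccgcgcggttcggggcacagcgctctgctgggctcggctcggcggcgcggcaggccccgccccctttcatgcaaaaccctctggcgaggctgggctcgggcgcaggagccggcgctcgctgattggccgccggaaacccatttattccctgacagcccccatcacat
Sox21: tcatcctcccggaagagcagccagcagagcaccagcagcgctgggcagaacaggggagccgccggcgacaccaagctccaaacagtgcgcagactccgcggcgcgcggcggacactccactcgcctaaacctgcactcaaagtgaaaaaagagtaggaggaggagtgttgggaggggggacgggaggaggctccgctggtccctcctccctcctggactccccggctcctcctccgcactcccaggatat
Sox15: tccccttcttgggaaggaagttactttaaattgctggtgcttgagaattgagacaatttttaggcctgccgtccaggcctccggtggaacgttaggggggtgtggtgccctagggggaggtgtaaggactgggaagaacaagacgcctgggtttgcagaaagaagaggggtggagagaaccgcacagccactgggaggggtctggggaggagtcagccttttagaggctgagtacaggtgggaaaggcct
The Sox2 stretch held 1 match, 206 bases before the start. The Sox15 and Sox21 stretches held 0. In Sox15 1 match on the opposite strand began at base 36 after the start, in cagctgttgggaCTTTGTggagaccaa. Of 32851 RefSeq promoter windows of the same length, 25.2% held a match upstream of the start, so the letters are common. A match is a description of the sequence and not a measured binding site.

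The medians of the 4 arrays ran from 5.49 to 5.60, and the lower quartiles from 4.19 to 4.25. The table holds no detection calls. As a guide to the floor, 3 probe sets for a bacterial tryptophan gene that standard spike-in mixes do not contain read 3.10 to 4.29. Of the 30 Sox probe sets, 16 lay above the array median on all 4 arrays, 10 lay below it on all 4, and 4 crossed it. Those 16 covered 8 of the 10 genes; Sox2 and Sox18 had no such probe set. Keratinocyte markers were bright as a list. All 10 of 10 were measured, their mean log2 level was 11.08 and 11.08 in positive and 11.34 and 11.48 in negative arrays, and none lay below the median on all arrays. Single markers differed. In 4 both positive arrays lay above both negative arrays (40.0%, beside 35.5% of all genes), and in 4 below (40.0%, beside 14.0%). Itgb4 read 11.90 and 12.37 in positive and 10.95 and 10.88 in negative arrays, and Krt1 11.43 and 9.92 against 12.57 and 12.66. Lor was dimmer, at 5.09 and 5.55 against 5.53 and 6.11.

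No Sox probe set passed limma's test at a Benjamini-Hochberg adjusted p of 0.05, and neither did any of the 45037 (0.0% called in each direction, lowest adjusted p = 0.226, and 0.0% with the replicate number as a block). At an unadjusted p under 0.05, 2 Sox probe sets were higher in positive cells and 2 lower, against 7.44% higher and 6.61% lower over all probe sets (3349 and 2976). The arrays of the 2 groups did not overlap in 11 of the 30 Sox probe sets: 6 had both positive arrays above both negative arrays, where 29.7% of all probe sets did, and 5 had them below, where 18.4% did. Both counts are near or under what the whole table gives. A gap of at least 1 log2 unit between the nearest arrays was found in 1 Sox probe set above and 0 below, against 0.462% and 1.37% of all probe sets. The median log2 difference, positive minus negative, was 0.07 over the Sox probe sets and 0.07 over all.

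**Figure D1:**
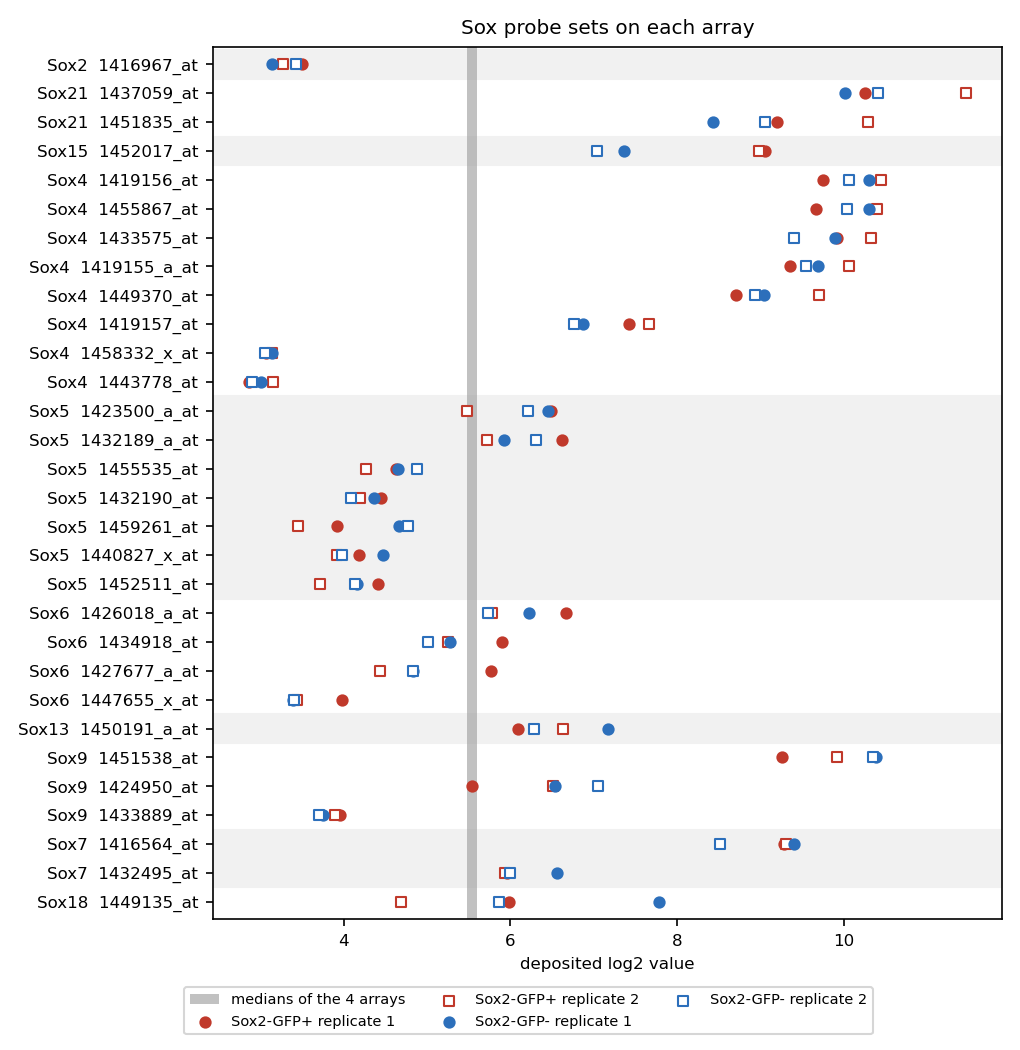
Deposited log2 value (horizontal axis) of each of the 30 Sox probe sets (rows) on each array, with Sox2-GFP+ arrays in red, Sox2-GFP- arrays in blue, circles for replicate 1 and open squares for replicate 2; the grey band spans the medians of the 4 arrays. The Sox15 arrays fall into separate groups at 8.98 to 9.06 and 7.04 to 7.37, while the Sox2 arrays lie together at 3.14 to 3.50.

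Sox2 itself, the gene whose reporter defined the sort, is on the arrays as 1 probe set, 1416967_at (gene at chr3:34649995-34652461). It read 3.50 and 3.27 in positive cells and 3.14 and 3.43 in negative cells. These values sat at the 2.1 to 7.4 percentile of their arrays, within the range of the tryptophan probe sets, and the groups overlapped. Positive replicate 1 lay 0.36 above negative replicate 1, whereas replicate 2 gave a difference of -0.16. Sox2ot, a non-coding transcript that overlaps Sox2, read 3.50 and 3.54 against 3.24 and 3.32, again near the floor. The Sox2ot groups were separate by 0.18 with positive cells higher, as 29.7% of all probe sets were. So close to the floor, the transcript values give no check of the sort labels in either direction.

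Sox21, which counteracts Sox2 in neural progenitors and is needed for the hair shaft cuticle, lay above the negative cells in both replicate numbers and on both of its probe sets. Probe set 1451835_at read 9.19 and 10.29 in positive and 8.43 and 9.05 in negative arrays. The groups did not overlap, although positive replicate 1 and negative replicate 2 were only 0.14 apart. The fit put this at 1.01 ± 0.45 log2 units (SE, n = 2 in each group; adjusted p = 0.410 by limma), a ratio of 2.01. Probe set 1437059_at read 10.25 and 11.47 against 10.01 and 10.41, so that negative replicate 2 lay above positive replicate 1. Its difference was 0.65 ± 0.46 (adjusted p = 0.567). Without positive replicate 2 the differences of the probe sets were 0.46 and 0.04, and without positive replicate 1 they were 1.56 and 1.25. Both probe sets put positive replicate 2 highest, and the difference was wider between the replicate 2 arrays (1.24 and 1.05) than between the replicate 1 arrays (0.77 and 0.25). In pools of sorted cells, a change in the share of cells that express a gene and a change in RNA per cell cannot be told apart.

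Sox15, the single group G member and a close relative of the B1 factors, had the widest separation of all the Sox probe sets. Its probe set 1452017_at (gene at chr11:69655037-69656727) read 9.06 and 8.98 in positive arrays and 7.37 and 7.04 in negative arrays. The arrays of each group lay close together, at 9.02 ± 0.05 (SD, n = 2) and 7.20 ± 0.23 (SD, n = 2). The difference was 1.82 ± 0.20 (SE, n = 2 per group), a ratio of 3.52, and was alike in the replicate numbers, at 1.69 and 1.94. Its limma adjusted p of 0.226 equalled the lowest in the whole table, so it did not pass. The adjustment gave that same value to other genes, among them Lgr5, Lhx2 and Gli1. The unadjusted limma p was 0.00046 for Sox15 and 3.97e-05 for Lgr5. The genes with the course most similar to that of Sox15, by root mean square distance of centred values over the 4 arrays, were Galnt6 (0.13), Steap1 (0.14) and Rps6ka5 (0.14). Galnt6, an enzyme that starts O-linked glycans, read 10.65 and 10.93 against 9.08 and 8.83. Over only 4 arrays, 2 groups that separate cleanly will resemble many genes, so this likeness is a description.

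Sox4 of group C, which is active in embryonic progenitors and in many carcinomas, is covered by 8 probe sets, of which 6 were above the median on all arrays. The direction depended on the replicate number. In the replicate 2 arrays the positive cells lay above the negative cells on all 8 probe sets, by 0.37 to 0.92 on the 6 bright ones. In the replicate 1 arrays they lay below on 6 of the 8. Probe set 1419156_at read 9.75 and 10.44 in positive and 10.30 and 10.06 in negative arrays, so that both negative arrays lay between the positive ones.

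Among the bright Sox4 probe sets the mean differences ran from -0.13 to 0.73, and 4 of them had overlapping groups. Equal medians brought the lowest of these to -0.05, and spike-in scaling made all 6 positive. The widest difference was in 1419157_at, at 7.42 and 7.67 against 6.87 and 6.76, which was 0.73 ± 0.19 (SE, n = 2 in each group; adjusted p = 0.272 by limma). Probe set 1433575_at also had separate groups, by 0.02 only (9.91 and 10.33 against 9.90 and 9.41). The remaining probe sets, 1443778_at and 1458332_x_at, read 2.86 to 3.15, at or under the tryptophan probe sets, on every array.

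The group D factors Sox5, Sox6 and Sox13 lack an activation domain of their own and pair through a coiled coil. Sox5 and Sox6 cooperate with Sox9 in cartilage. Of the 12 group D probe sets, 3 were above the array median on all arrays, and 9 had overlapping groups. Sox5 had 7 probe sets, 5 of them below the array median on all arrays. The widest separation was in 1459261_at, which read 3.92 and 3.46 in positive and 4.67 and 4.78 in negative arrays. Positive minus negative was -1.04 ± 0.23 (SE, n = 2 in each group; adjusted p = 0.250 by limma), and all 4 values lay below the array medians. The brighter Sox5 probe sets differed by -0.35 (1423500_a_at) and 0.05 (1432189_a_at), with positive replicate 1 the highest array and positive replicate 2 the lowest on both.

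Sox6 had 4 probe sets, each of which put positive replicate 1 highest. Probe set 1426018_a_at read 6.67 and 5.78 in positive and 6.22 and 5.73 in negative arrays. Mean differences over the 4 ran from 0.25 to 0.43 (limma adjusted p = 0.552 to 0.823). Within replicate 1 they were 0.45 to 0.94 and within replicate 2 -0.39 to 0.23. Sox13, which is known from T cells and arterial walls, had 1 probe set, 1450191_a_at, at 6.09 and 6.63 against 7.17 and 6.28. Positive cells were lower by 1.08 in replicate 1 (difference -1.08) and higher by 0.35 in replicate 2, and the mean difference of -0.37 ± 0.38 (SE) was smaller than its error.

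Sox9 of group E, which hair follicle stem cells need and which also directs cartilage formation, lay below the negative cells on both of its bright probe sets. Probe set 1451538_at read 9.26 and 9.92 in positive and 10.38 and 10.35 in negative arrays. The groups did not overlap, and positive replicate 1 was the lowest array. Positive minus negative came to -0.78 ± 0.28 (SE, n = 2 in each group; adjusted p = 0.340 by limma), so negative cells held 1.71 times the signal. It was -0.45 without positive replicate 1 and -1.11 without positive replicate 2. Probe set 1424950_at, at 5.54 and 6.51 against 6.54 and 7.05, gave -0.77 ± 0.40 (adjusted p = 0.465), with a gap of only 0.02 between the nearest arrays, and was -0.28 and -1.25 without positive replicates 1 and 2 in turn. The direction was the same in both replicate numbers (-1.12 and -0.43, and -0.996 and -0.54). Scaling to the spike-in transcripts brought them to 0.01 and 0.03. The remaining probe set, 1433889_at, read 3.71 to 3.96, near the floor, and was higher in positive cells by 0.20.

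Sox9 was set beside a list of 16 hair follicle genes, drawn up for the outer root sheath and follicle stem cells, all of which were measured. The list also holds hedgehog pathway genes, Krt75 and Postn, so its counts do not describe a single cell type. The groups were separate in 13 of the 16, with positive cells lower in 10 and higher in 3. Over all 18193 genes, 14.0% were separate with positive cells lower and 35.5% with positive cells higher. None passed limma's test (lowest adjusted p = 0.226). The list median was -0.70, beside 0.14 over all genes, and 0.09 beside 0.93 after spike-in scaling. Lgr5, a receptor of follicle stem cells, read 4.33 and 3.85 against 8.21 and 7.89, and Lhx2, a homeobox factor of the same cells, 4.33 and 3.92 against 7.65 and 7.06. Nfatc1, which keeps these cells quiescent, read 6.64 and 6.51 against 8.33 and 8.58, and Foxc1, a forkhead factor of the same quiescence, 7.67 and 7.51 against 9.205 and 9.64. The 3 that were higher were Cd34, Gli3 and Shh, named after their values were seen. Cd34 read 8.74 and 8.96 against 7.36 and 6.43, while Shh lay below the array median on all arrays.

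Sox7 and Sox18 of group F work in developing vessels, where Sox18 also starts the lymphatic programme. Sox18 had 1 probe set, 1449135_at (gene at chr2:181669837-181671640), which read 5.99 and 4.69 in positive and 7.78 and 5.86 in negative arrays. Negative replicate 1 was highest, and the groups overlapped because negative replicate 2 lay 0.12 below positive replicate 1. Positive minus negative came to -1.48 ± 0.78 (SE, n = 2 in each group; adjusted p = 0.468 by limma), so negative cells held 2.79 times the signal, with -1.79 in replicate 1 and -1.17 in replicate 2. The difference was -0.52 without negative replicate 1 and -2.44 without negative replicate 2, and -2.13 and -0.83 without positive replicates 1 and 2. It stayed negative after spike-in scaling, at -0.69.

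Most endothelial genes had the same highest array as Sox18. Of the 16 on the list, all measured, 14 were highest in negative replicate 1, and 8 had the same order of the 4 arrays as Sox18. Their mean log2 level was 6.05 and 5.29 in positive and 7.25 and 5.77 in negative arrays, and their summed linear signal was 1295 and 742 against 3074 and 1005. Over all genes, 16.6% were highest in that array and 3.39% had that order. That array was also highest for 11 of 12 fibroblast and dermal papilla markers and 6 of 8 melanocyte and Schwann cell markers. Of leukocyte markers it was highest for 4 of 9, and of keratinocyte markers for 2 of 10. The order of Sox18 was found in 1 fibroblast, 1 melanocyte, 3 leukocyte and 0 keratinocyte markers. Among the endothelial genes, the groups were separate in 3 with positive cells lower (18.8%, beside 14.0% of all genes) and in 0 with positive cells higher (35.5% of all). The list median was -0.84 beside 0.14 over all genes, and -0.05 beside 0.93 after spike-in scaling. Only Tek lay below the array median on all arrays, and none lay below the lower quartile on all. Pecam1, which encodes the CD31 used to gate endothelium out, read 5.57 and 6.41 against 8.44 and 6.27, and Cdh5, the endothelial cadherin, 6.59 and 5.28 against 8.55 and 6.05. Of the genes with the smallest p on the list, the VEGF receptor Flt1 read 5.70 and 4.81 against 8.02 and 6.41, and the sialomucin Emcn 5.99 and 4.20 against 7.94 and 6.21. The junction protein Cldn5 read 5.68 and 4.91 against 6.58 and 5.67, and Plvap, of the fenestral diaphragm, was highest in negative replicate 1 at 8.19. The part of endothelial RNA in the Sox18 values was not tested.

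Both Sox7 probe sets were also highest in negative replicate 1, the bright one narrowly. That was not limited to group F. By the brightest probe set, 4 of the 10 Sox genes were highest in that array, where 16.6% of all genes were. These were Sox7, Sox18, Sox13 and, narrowly, Sox9. The bright Sox7 probe set, 1416564_at, read 9.28 and 9.30 in positive and 9.40 and 8.51 in negative arrays. Thus 3 arrays lay together and negative replicate 2 was lowest, and positive minus negative was 0.34 ± 0.34 (SE, n = 2 in each group; adjusted p = 0.688 by limma). The dimmer 1432495_at read 5.96 and 5.94 against 6.56 and 5.999 and gave -0.33 ± 0.25 (adjusted p = 0.596). The mean differences of the probe sets thus pointed in opposite directions.

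**Figure D2:**
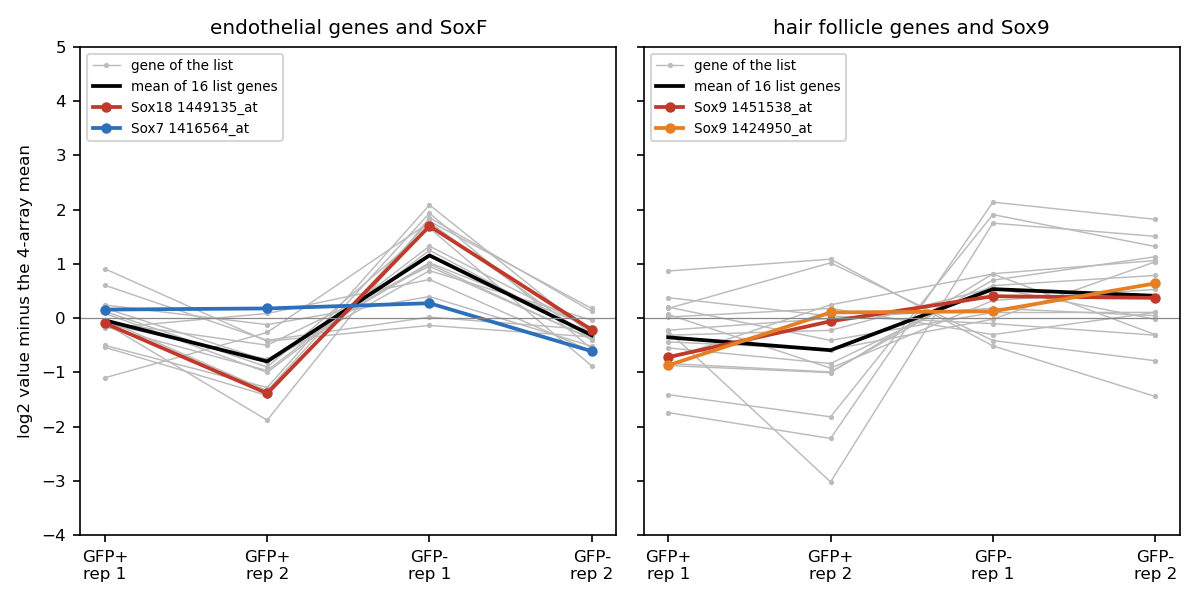
Log2 value minus the 4-array mean of each gene (vertical axis) on each array; grey lines are single genes of the list, the black line is their mean, and coloured lines are Sox18 and Sox7 (left, with 16 endothelial genes) and the bright Sox9 probe sets (right, with 16 hair follicle genes). Sox18 peaks in negative replicate 1 (7.78) with the endothelial mean, the bright Sox7 probe set is nearly level there with the positive arrays (9.40 beside 9.28 and 9.30), and Sox9 is lowest in positive replicate 1 (9.26 and 5.54).

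Compared by replicate number, 10 of the 30 Sox probe sets had the positive array above the negative one in both, where 36.5% of all probe sets did, and 7 had it below in both, where 26.2% did. The other 13 pointed in opposite directions (37.3% of all). Sox15, both Sox21 probe sets and the Sox4 probe set 1419157_at (0.55 and 0.90) were higher in positive cells in both, and the bright Sox9 probe sets and Sox18 were lower in both. Sox4 lay relatively higher in positive replicate 2 and Sox6 in positive replicate 1. Positive replicate 1 also had the highest mean level for the other Sox genes and the cartilage genes listed below, though not for the hair follicle or endothelial genes. The share of all probe sets with either pattern was not counted, so neither is read as a trait of the gene. The median absolute gap between the 2 replicate differences was 0.58 over the Sox probe sets and 0.37 over all. In 20 of the 30 Sox probe sets that gap was wider than the mean difference itself. The same share over all probe sets was not counted, so this is not read as a trait of the Sox genes.

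**Figure D3:**
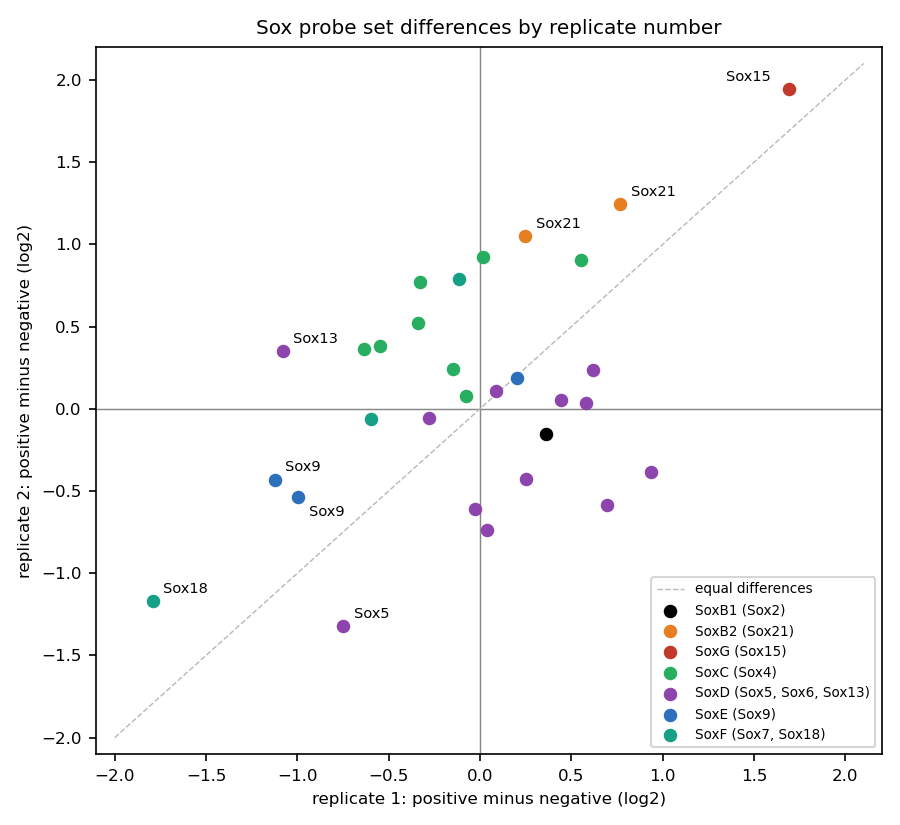
Positive minus negative log2 difference of each Sox probe set in replicate 1 (horizontal axis) and replicate 2 (vertical axis), coloured by Sox group; the dashed line marks equal differences. Sox15 lies alone at 1.69 and 1.94, Sox18 lies at -1.79 and -1.17, and the Sox4 probe sets lie above the dashed line.

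The scaling between arrays sets the level around which these differences lie. Quantile normalization kept the sign of all 30 mean differences, and equal medians kept it for 29. When each array was set level on its 24 poly-A spike-in probe sets, whose difference was -0.79 as deposited, 0.79 was added to every difference, which moved the median of all probe sets from 0.07 to 0.86. Under that scaling only Sox18 (-0.69) and the dim Sox5 probe set 1459261_at (-0.24) stayed below 0, while Sox15 stood at 2.61. Separate groups were then found in 23 Sox probe sets above (80.1% of all) and 0 below (2.04%). With equal medians the counts were 8 above (37.7% of all) and 2 below (14.2%), and after quantile normalization 6 above (29.7%) and 4 below (18.8%). Equal medians and spike-in scaling add 1 constant per array, so they cannot move a member relative to the median of all probe sets.

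**Figure D4:**
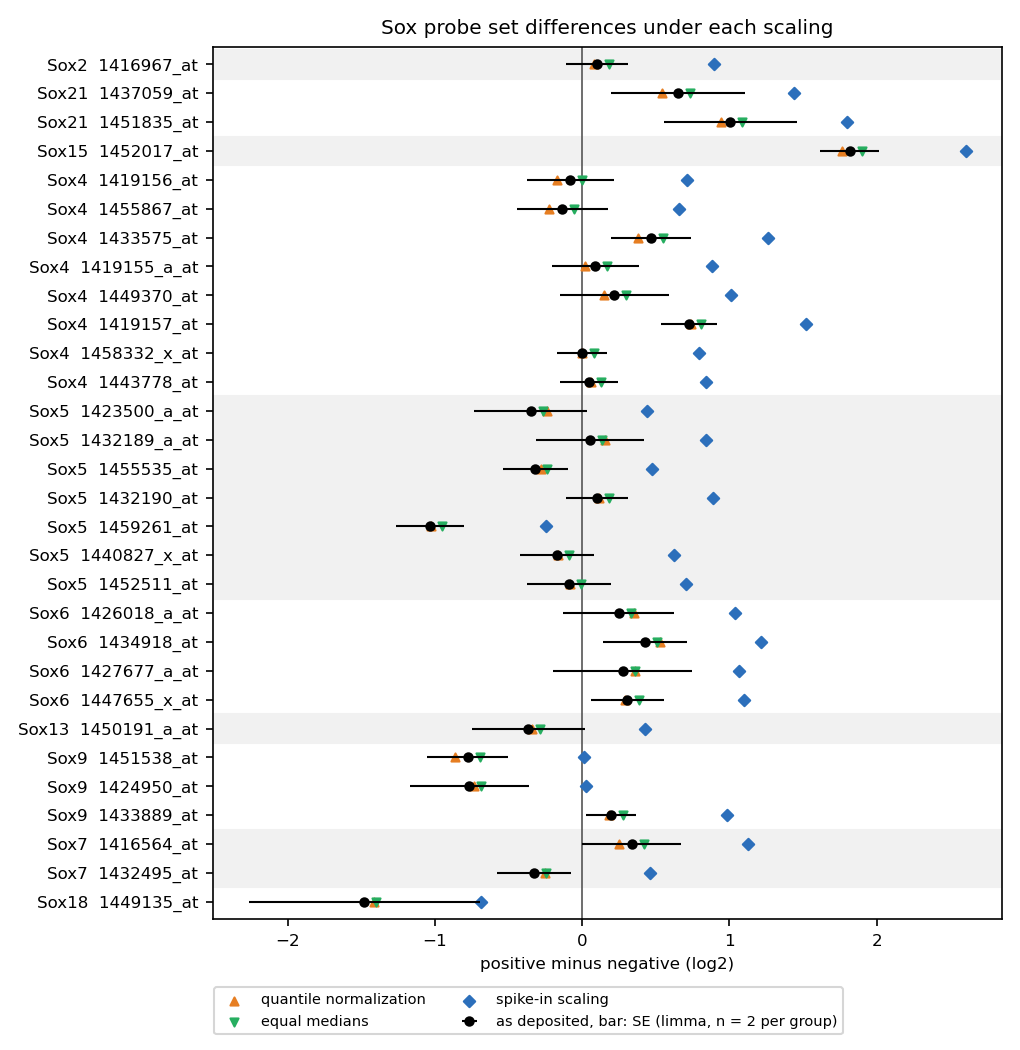
Positive minus negative log2 difference (horizontal axis) of each Sox probe set as deposited (black, bars show the SE from limma, n = 2 per group) and after quantile normalization, equal medians and spike-in scaling. Spike-in scaling shifts every probe set by 0.79; Sox15 is the rightmost probe set under each scaling (1.82 as deposited).

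The other 10 Sox family genes, Sry, Sox1, Sox3, Sox8, Sox10, Sox11, Sox12, Sox14, Sox17 and Sox30, had 23 probe sets, 14 of them below the median on all arrays. Groups were separate in 11 above (29.7% of all probe sets were) and 1 below (18.4% of all), and none passed limma. The 1 below was Sox17 1429177_x_at, at 3.54 and 3.21 in positive and 5.32 and 3.75 in negative arrays. It lay below the array median on all arrays, and the brighter Sox17 probe set overlapped. Of the 11, 6 were all the probe sets of Sox11, a group C relative of Sox4. Its brightest, 1431225_at, read 5.98 and 6.60 in positive and 5.67 and 4.21 in negative arrays, a difference of 1.35 (limma adjusted p = 0.379). Over the 6 probe sets the difference ran from 0.49 to 1.35 (adjusted p = 0.261 to 0.419), within replicate 1 from 0.17 to 0.67 and within replicate 2 from 0.80 to 2.39. Most were dim: 1429372_at, 1436790_a_at, 1453002_at and 1453125_at lay below the array median on all arrays. Probe set 1453125_at read 3.77 and 4.66 against 3.47 and 3.34, mostly within the range of the tryptophan probe sets. Sox11 was singled out after its values were seen. Sox10, a neural crest and melanocyte factor, overlapped on its brightest probe set, while of the 8 measured melanocyte and Schwann cell markers 5 were separate below (62.5%, beside 14.0% of all genes) and 0 above (35.5% of all). Sox1, Sox3 and Sox8 were separate above on their brightest probe set, by differences of 0.38, 0.49 and 0.20. That of Sox1 lay below the array median on all arrays, and the other Sox1 probe set overlapped. The nearest Sox3 arrays were only 0.0021 apart and its other probe set overlapped, and Sox8 read 3.85 to 4.13, within the range of the tryptophan probe sets.

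Factors known to act with or against Sox2 form the next list. Of 18 such genes, 16 were measured, 4 separate above (35.5% of all genes were), 4 below (14.0% of all) and 8 overlapping, with a median of 0.09 beside 0.14 over all genes, and none passed limma. Pitx1, a homeobox factor of hindlimb and oral epithelium, read 9.77 and 8.32 against 7.84 and 6.28, a difference of 1.99 (limma adjusted p = 0.345). Chd7, a chromatin remodeller that binds Sox2, read 8.73 and 9.33 against 10.19 and 10.35, and Grhl3, a factor of the epidermal barrier, 8.95 and 8.44 against 9.17 and 10.25. Pou5f1, the partner of Sox2 in embryonic stem cells, read 4.78 and 4.50 against 4.31 and 4.16, below the median on all arrays. Trp63, the epidermal lineage factor, was bright throughout at 12.37 to 12.68.

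Cartilage genes that Sox5, Sox6 and Sox9 activate together in chondrocytes were mostly dim. Of the 12 listed and measured, 7 lay below the array median on all arrays and 3 below the lower quartile on all. Groups were separate in 3 above, where 35.5% of all genes were, and 1 below, where 14.0% were, and the median difference was 0.13 beside 0.14. Col2a1, the main cartilage collagen, read 6.13 and 5.68 against 5.29 and 5.01, and Col11a1 4.43 and 3.90 against 5.69 and 4.61. Col9a1 read 5.35 and 4.86 against 4.87 and 4.85, and the matrilin Matn3 3.86 and 4.04 against 3.80 and 3.65. Of 12 Tcf/Lef factors and Wnt targets, whose output Sox proteins can modulate, 11 were measured, 3 separate above (27.3%, beside 35.5% of all genes) and 4 below (36.4%, beside 14.0%), with a median of 0.08. Ccnd1, the G1 cyclin, read 11.30 and 11.77 against 10.45 and 10.13, and Lgr4, an R-spondin receptor, 7.50 and 7.77 against 8.23 and 8.55. Rnf43, a ligase that removes Wnt receptors, read 5.91 and 6.09 against 5.63 and 5.41, and the Wnt target Sp5 4.74 and 4.66 against 4.40 and 4.39. None of either list passed limma (lowest adjusted p = 0.314 and 0.247).

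Other cell types that express Sox genes were also read. Of 10 Merkel cell markers, 7 lay below the array median on all arrays, and 3 were separate above (30.0%, beside 35.5% of all genes) and 0 below (14.0% of all). Krt18, a simple keratin, read 8.01 and 7.78 against 5.48 and 7.41, while Atoh1, the Merkel cell determination factor, read 4.20 to 4.47. Of 12 fibroblast and dermal papilla markers, 10 were separate below (83.3%, beside 14.0% of all genes) and 0 above (35.5% of all). Their mean log2 level was 8.25 and 6.10 in positive and 10.23 and 8.67 in negative arrays, and their summed linear signal 16053 and 2003 against 44524 and 19105; 1 was below the lower quartile on all arrays. Of 9 leukocyte markers measured, 1 was separate in each direction (11.1%, beside 35.5% of all genes above and 14.0% below), with mean levels of 5.83 and 5.30 against 6.56 and 5.59. For the melanocyte list the mean levels were 5.33 and 4.77 against 6.33 and 5.87. The median differences of the fibroblast and melanocyte lists were -2.44 and -0.98 as deposited, beside 0.14 over all genes, and -1.65 and -0.18 after spike-in scaling, beside 0.93. The sort had removed CD140a-positive cells, and Pdgfra, which encodes CD140a, read 5.93 and 4.85 against 7.83 and 5.96. Both medians were below 0, as were the Sox18 and bright Sox9 differences as deposited, and their part in the Sox values was not tested.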

How the data were processed

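The authors deposited log2 values of 45101 probe sets for the 4 arrays in a single table, and that scale was inferred from the values. Per the labels' protocols, 100 ng of total RNA per sample was spiked with bacterial transcripts, amplified with an in vitro transcription kit and biotin-labelled. The submitters' processing notes name R 2.14.0; how background was corrected and arrays were normalized and summarised is not given in the sources used here. Groups and replicate numbers came from the sample titles.

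The 64 control probe sets were left out, and 45037 were tested with limma 3.58.1 in R 4.3.3 (lmFit and eBayes, group as the only term, 2 residual and 2.56 prior degrees of freedom, two-sided, Benjamini-Hochberg adjusted p under 0.05). The test was tried on simulated data. Symbols came from the platform annotation, and 10 of 10 members matched RefSeq (GRCm38.p6) by gene number. Lists used each gene's brightest probe set over 18193 genes, and up to 4 genes with the smallest p were named from each list other than the cell type markers. Further list genes were named outside that rule, among them Trp63, Pecam1, Cdh5, Tek, Sox10, Sox17, Cd34, Gli3 and Shh. Upstream sequences are from RefSeq, with 7 members in that table. Members, lists and rules were chosen with earlier results of these data known.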

Additional observations from a re-analysis of the deposited data

How the results depend on the processing

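With 2 arrays per group and no detection calls, signal over background limits every dim value, and 0 calls at this size do not show that levels are alike. No probe set was called under any alternative other than spike-in scaling, with lowest adjusted p from 0.0537 (trended prior) to 0.575 over the others. Spike-in scaling, which adds 0.79 to all differences, called 26711 higher and 315 lower, 27026 in all. It called 12 of the 30 Sox probe sets higher (lowest limma adjusted p = 0.0270), beside the 26711 of all 45037. Among the 12 were Sox2 at 0.89, which was 0.10 as deposited, and the dim Sox4 1458332_x_at at 0.79, which was -0.0005 as deposited. With the replicate block 0 probe sets were called (lowest adjusted p = 0.0974, and 0.119 for Sox15). The labels do not say that a number marks a tumour, and the deviations of same-numbered arrays correlated across probe sets with r = 0.18, which leaves the pairing undecided; genes are not independent replicates.

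Separate groups were found in 6 Sox probe sets above and 5 below as deposited (29.7% and 18.4% of all probe sets). Equal medians left 2 below (14.2% of all), and spike-in scaling gave 23 above (80.1%) and 0 below (2.04%). Without the dimmer probe sets 3 of 18 were below, as they were among the 18 above the array median in a whole group, an alternative added after seeing the data. With 1 value per gene, brightest or mean, 1 of 10 genes was above and 1 below (35.5% and 14.0% of all genes by the brightest probe set). Leaving out 1 array gave 8 to 14 above and 5 to 11 below, since 3 arrays separate more easily. By replicate number, spike-in scaling gave 24 above in both, 2 below in both and 4 opposite, also added later. Leaving out 1 array changed the sign of 3 (negative replicate 2) to 8 (positive replicate 1) of the 30 mean differences and called 0. For the filters on dim probe sets, the runs without 1 array and the later counts by replicate number, shares over all probe sets were not counted. Those counts are therefore not read as results about the Sox genes.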
